A study of Homo sapiens with 9 samples.

Results

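LYL1 knockdown was compared with control shRNA in 6 of the 9 RNA sequencing libraries of the series: 3 carried a control shRNA (replicates 1, 2 and 3) and 3 carried an shRNA against LYL1, a different one in each (538, 540 and 542). All came from Kasumi-1, an established human acute myeloid leukaemia line with the t(8;21) translocation, which makes the fusion protein AML1-ETO (RUNX1-RUNX1T1). Every group, control included, was infected with shRNA lentivirus, left for 48 h, selected with 1 µg/mL puromycin for 48 h and harvested on day 4. AML1-ETO was not targeted in any of these 6 libraries. The other 3 libraries carry AML1-ETO shRNAs and enter here through the estimate of spread and as values set beside those of the LYL1 libraries. Each shRNA against LYL1 has 1 library, so a value for 1 shRNA is 1 measurement without a replicate. Whether these libraries stem from separate cultures is not stated in the labels, and p-values therefore measure only the spread between these libraries.

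LYL1 is a basic helix-loop-helix transcription factor of blood progenitors and a close relative of TAL1. Such factors bind DNA at E-box sites as heterodimers with E proteins (TCF3, TCF4, TCF12), and the adaptors LMO2 and LDB1 bridge them to other factors. In t(8;21) cells LYL1 belongs to the AML1-ETO-containing transcription factor complex (AETFC), together with CBFB, E proteins, LMO2 and LDB1. The series asks, by its title, how LYL1 contributes to the assembly of that complex and to gene activation through the arginine methyltransferase CARM1.

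The 6 libraries held 20103275 to 26339032 counts, of which shRNA 542 had the fewest, and 1 CPM (counts scaled by library size) stood for 20.1 to 26.6 counts. The 3 controls were close to each other, the biological coefficient of variation being 7.57% there, 20.9% among the 3 LYL1 shRNAs and 31.5% among the AML1-ETO knockdown libraries. Markers of a myeloid blast were present in every library, among them MPO at 11418 CPM or more, KIT at 756 CPM or more and RUNX1T1 at 183 CPM or more. Of the markers of other cells, MS4A1, EBF1, LCK, HBB, PF4, COL1A2, KRT18 and CDH1 had no count in any of the 6 libraries. Other genes of those marker lists were expressed, such as the B-lineage genes IGLL1 (109 to 120 CPM in the controls and 41.8, 83.6 and 87.2 CPM with shRNAs 538, 540 and 542) and PAX5 (2.27 to 3.24 CPM and 10.1, 1.97 and 2.54 CPM). Summed over the B-lineage list, the markers held 121 to 133 CPM under control shRNA and 64, 93.9 and 103.8 CPM with the 3 shRNAs. Over the 6 libraries the summed markers held 2.40 to 6.44 CPM for T and NK cells, 467 to 569 CPM for erythroid cells (mostly TFRC, the transferrin receptor, at 457 to 558 CPM), 3.44 to 5.38 CPM for megakaryocytes and 0.548 to 1.21 CPM for fibroblasts and epithelium. The part of these markers in the results was not tested. Mitochondrial ribosomal RNA took 0.483% to 0.549% of counts in the controls and 0.507%, 0.609% and 0.79% with shRNAs 538, 540 and 542.

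LYL1 lay at 172, 172 and 143 CPM under control shRNA and at 80.3, 98.3 and 43.9 CPM with shRNAs 538, 540 and 542, so that 49.5%, 60.5% and 27% of the control mean remained. No knockdown library reached the lowest control, and shRNA 542 left the least LYL1 and shRNA 540 the most. The fitted log2 fold change was -1.13 (SE 0.26, n = 3 libraries a group). The spread behind this SE holds the differences between the 3 shRNAs as well as those between libraries. The edgeR adjusted p was 0.526 with all 9 libraries, where the spread also draws on the AML1-ETO knockdown, and 0.176 with the 6 libraries compared. DESeq2 called the gene (adjusted p = 0.0202), as did limma-voom with a spread per group (adjusted p = 0.042).

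At an unadjusted p below 0.05 edgeR gave 402 genes higher (2.73%) and 309 lower (2.10%). Only 2 of 14741 genes tested (0.0136%) passed the edgeR threshold of an adjusted p below 0.05, 1 in each direction (0.00678% each). HSD17B10, a mitochondrial dehydrogenase that is also a subunit of mitochondrial RNase P, rose 4.26-fold. TRH, the precursor of thyrotropin-releasing hormone and a gene described as raised by AML1-ETO, fell 3.71-fold. The call of TRH was lost when any 1 of the 6 libraries was left out (adjusted p of 0.054 to 0.317), while that of HSD17B10 was kept in each of these fits. A fit of only the 6 libraries called 18 genes (0.122%), 12 higher (0.0814%) and 6 lower (0.0407%), DESeq2 called 34 and limma-voom with a spread per group 26. limma-voom with 1 common spread called 2. HSD17B10 and TRH were called in each of these 4 alternatives, and no other gene was called in all of them. Where no other tool is named below, called means passed the edgeR test with 9 libraries. Counts of list members at an unadjusted p below 0.05 stand against the shares of 2.73% higher and 2.10% lower.

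Because each library carries another shRNA, the genes on which all 3 shRNAs agree were listed by a fixed rule. A gene counts when its mean log2(CPM + 0.5) over the 6 libraries is at least 2 (10240 of the tested genes). Each shRNA library must also be at least 2-fold from the control mean in the same direction, and no shRNA library may lie within the range of the controls. Ratios of 1 library are also taken on log2(CPM + 0.5), which understates changes of low genes. By this rule 5 genes were higher (0.0488% of the 10240) and 2 were lower (0.0195%). More genes passed 2-fold with any 1 shRNA: 66 genes higher (0.645%) and 76 lower (0.742%) with shRNA 538, 20 (0.195%) and 50 (0.488%) with shRNA 540, and 63 (0.615%) and 95 (0.928%) with shRNA 542. No test was applied to this list, since the values that chose its genes are those of the comparison.

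**Figure D1:**
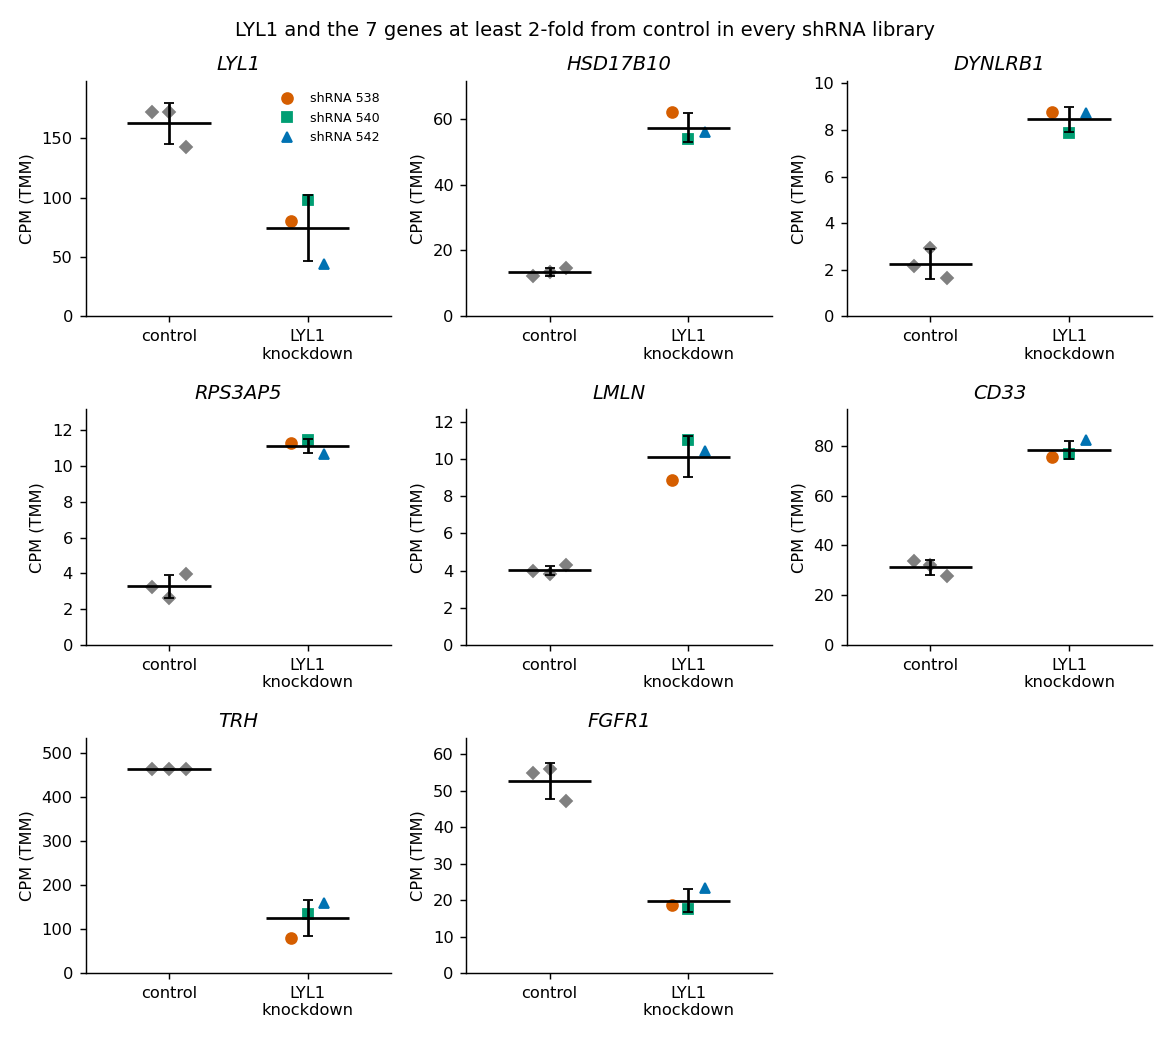
LYL1 and the 7 genes at least 2-fold from the control mean in every LYL1 shRNA library, as TMM-scaled CPM (y axis, linear from 0) in each of the 3 controls (grey diamonds) and each shRNA library (coloured by shRNA), with mean and SD as horizontal and vertical bars. In all 8 panels the shRNA libraries lie clear of the controls, and the spread between shRNAs is widest relative to the mean for LYL1, at 43.9 to 98.3 CPM, and TRH, at 80.5 to 160 CPM.

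Among the 5 higher genes, HSD17B10 had the largest fitted difference. It lay at 12.2, 13.5 and 14.6 CPM under control shRNA and at 62.1, 53.8 and 55.8 CPM with shRNAs 538, 540 and 542 (edgeR log2 fold change 2.09 with SE 0.14, adjusted p = 0.000107). The order of the shRNAs here is not that of the LYL1 level: the library with the most LYL1 left, shRNA 540, and that with the least, shRNA 542, lay next to each other. DYNLRB1, a light chain of the dynein motor, lay at 2.18, 2.94 and 1.64 CPM under control shRNA and at 8.78, 7.85 and 8.72 CPM with the shRNAs (edgeR adjusted p = 0.0587, and 0.0136 with 6 libraries). LMLN, a metallopeptidase, lay at 3.96, 3.8 and 4.28 CPM under control shRNA and at 8.9, 11 and 10.5 CPM with the shRNAs (edgeR adjusted p = 0.0587, and 0.0181 with 6 libraries). RPS3AP5, a processed pseudogene of the ribosomal protein gene RPS3A, lay at 2.64 to 3.94 CPM under control shRNA and at 10.7 to 11.4 CPM with the shRNAs. Its counts are uncertain, as reads of a near-identical copy can be split, and RPS3A itself lay at 945 to 1034 CPM under control shRNA and at 1146, 1548 and 835 CPM.

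CD33 is the other higher gene. This sialic acid-binding surface receptor of myeloid cells, an antibody target in acute myeloid leukaemia, lay at 33.6, 32.2 and 27.8 CPM in the controls. With the shRNAs it lay at 75.7, 76.9 and 82.3 CPM, so that the 3 shRNA values spread less among themselves than they differ from the controls (log2 fold change 1.33, SE 0.22). CD33 was not called with all 9 libraries (edgeR adjusted p = 0.142) and was called with the 6 (0.0019). CXCL8, the neutrophil chemokine interleukin-8, was past 2-fold with each shRNA but just under the level minimum, at a mean log2 CPM of 1.93, and joins the list when the minimum is set on the mean CPM. It lay at 1.29, 1.81 and 1.76 CPM under control shRNA and at 5.79, 5.41 and 8.42 CPM with shRNAs 538, 540 and 542. Its fitted log2 fold change was 2.00 with an SE of 0.28 (edgeR adjusted p = 0.0587, and 0.0181 with 6 libraries), and its highest value was in the library with the least LYL1.

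The 2 lower genes were TRH and FGFR1. TRH lay at 463, 464 and 464 CPM in the controls, with an SD of 0.926 CPM, and at 80.5, 134 and 160 CPM with shRNAs 538, 540 and 542 (edgeR log2 fold change -1.89 with SE 0.23, adjusted p = 0.0408). Here shRNA 542, which left the least LYL1, left the most TRH. FGFR1, a receptor tyrosine kinase for fibroblast growth factors, lay at 54.9, 56 and 47.1 CPM under control shRNA and at 18.6, 17.5 and 23.4 CPM (log2 fold change -1.41, SE 0.35). It was not called with all 9 libraries (edgeR adjusted p = 0.596) and was called with the 6 (0.00576). Just inside the 2-fold limit was LMLN, at a smallest ratio of 2.08-fold, and just outside it were ALOX5AP at 1.98-fold, ICAM1 at 1.9-fold and, among lower genes, MFAP4 at 1.8-fold.

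The same controls serve the AML1-ETO knockdown, whose values stand beside these as follows. HSD17B10 lay at 86.6, 96.5 and 85.4 CPM with AML1-ETO shRNAs 1, 2 and 3, DYNLRB1 at 11.6, 8.52 and 13.5 CPM and LMLN at 11.4, 13.5 and 9.81 CPM. CD33 lay at 117, 85.9 and 173 CPM and TRH at 178, 137 and 201 CPM. RPS3AP5 lay at 6.04, 5.88 and 26.5 CPM and CXCL8 at 4.9, 3.73 and 5.82 CPM. FGFR1 lay at 86.9, 42 and 26.1 CPM, on both sides of the controls. For a gene that lies on one side of the controls in both sets, a change with each knockdown and a level peculiar to the control shRNA libraries cannot be told apart in this design.

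The upstream sequences of 4 genes are shown because they are the 2 called genes and the myeloid genes CD33 and CXCL8, and because LYL1, E proteins and RUNX1 act through short DNA motifs. Each is the 250 bases before the start of the gene in the RefSeq table (GRCh38.p14), 5′ to 3′ on the gene's strand: chr3:129974470-129974719 (+) for TRH, chr19:51224830-51225079 (+) for CD33, chr4:73740319-73740568 (+) for CXCL8 and chrX:53434377-53434626 (-) for HSD17B10. Capitals mark matches, on either strand, to an E-box (CANNTG), a RUNX motif (TGTGGT), an AP-1 motif (TGANTCA) or an NF-kB motif (GGAATTTCC), and none of the matches overlap.
TRH: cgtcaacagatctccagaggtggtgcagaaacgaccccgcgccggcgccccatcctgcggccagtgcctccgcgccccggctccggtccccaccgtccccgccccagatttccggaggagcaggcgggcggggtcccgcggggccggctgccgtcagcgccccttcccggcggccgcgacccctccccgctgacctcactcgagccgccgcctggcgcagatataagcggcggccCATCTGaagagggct
CD33: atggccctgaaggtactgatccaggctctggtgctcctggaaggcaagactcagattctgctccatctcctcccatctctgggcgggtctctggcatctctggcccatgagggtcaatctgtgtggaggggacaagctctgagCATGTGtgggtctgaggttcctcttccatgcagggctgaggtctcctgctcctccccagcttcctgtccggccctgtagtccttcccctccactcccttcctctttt
CXCL8: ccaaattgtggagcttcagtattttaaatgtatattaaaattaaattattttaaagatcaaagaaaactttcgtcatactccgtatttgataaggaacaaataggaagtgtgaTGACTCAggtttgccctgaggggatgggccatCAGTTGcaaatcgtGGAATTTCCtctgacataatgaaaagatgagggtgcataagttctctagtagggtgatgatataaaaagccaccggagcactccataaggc
HSD17B10: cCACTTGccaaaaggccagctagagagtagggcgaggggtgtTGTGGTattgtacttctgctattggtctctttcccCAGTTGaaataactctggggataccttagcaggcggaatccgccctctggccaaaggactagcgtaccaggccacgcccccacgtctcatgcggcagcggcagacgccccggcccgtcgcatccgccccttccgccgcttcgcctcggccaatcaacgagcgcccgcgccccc

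TRH held 1 E-box, whose first base lies 15 bases before the start, and CD33 held 1, at 107 bases. CXCL8 held an AP-1 match at 137 bases, an E-box at 105 bases and an NF-kB match at 91 bases before the start. HSD17B10 held 2 E-boxes, at 249 and 173 bases, and a RUNX match at 208 bases. Of the 9830 tested genes with an entry in the table, 53.3% held an E-box in this window, so an E-box is what most promoters hold. A RUNX match stood in 7.8%, an AP-1 match in 3.58% and the exact NF-kB sequence in 0.366%. The RUNX and NF-kB motifs were searched as fixed sequences without variable bases, so these shares leave out other forms of the sites. How rare an NF-kB site such as that of CXCL8 is cannot be read from them. Among the agreeing genes an E-box stood in all 5 of the 7 2-fold genes that have an entry and in 18 of the 28 of the 40 genes past 1.5-fold that have one (64.3%). The check of motifs by set is void, because fewer than 80% of the genes of each set have an entry. A match describes letters and is no evidence of binding.

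With a lower limit of 1.5-fold in each shRNA, 40 genes agreed, 20 higher (0.195% of the 10240) and 20 lower (0.195%), LYL1 among the lower. Besides the genes above, the higher set held the AP-1 subunits JUND and JUN, the adhesion receptor ICAM1, the p53 antagonist MDM2, the leukotriene pathway protein ALOX5AP, the calcium-binding protein S100A9, the adaptor SASH3 and the secretory pathway protein TMED4. JUND lay at 38.6, 43.4 and 37.1 CPM under control shRNA and at 89.1, 67.9 and 80.2 CPM with shRNAs 538, 540 and 542. JUN lay at 2.43 to 2.59 CPM under control shRNA and at 5.87, 4.68 and 6.13 CPM. ICAM1 lay at 13.5, 16.7 and 12.8 CPM under control shRNA and at 32, 27.7 and 41.8 CPM. In JUN, ICAM1, ALOX5AP, S100A9, RN7SK and STK17B the order of the shRNAs from low to high was 540, 538, 542. That is the reverse of the order of the shRNAs in LYL1 level. The other genes of the higher set, JUND, MDM2, TMED4, SASH3, CD33 and HSD17B10 among them, had other orders. All were picked by these same values.

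MDM2, the ubiquitin ligase of p53, lay at 38.2, 40.7 and 40.7 CPM under control shRNA and at 73, 65 and 62.5 CPM with the shRNAs. TMED4 lay at 52.5, 51.1 and 47.8 CPM and at 93.3, 108 and 114 CPM (edgeR adjusted p = 0.0587, and 0.006 with 6 libraries). S100A9, a protein of granulocytes and monocytes, lay at 9.14 to 10.2 CPM under control shRNA and at 19.4, 17.3 and 33.3 CPM. SASH3 was carried mostly by 1 shRNA, at 22.8 CPM with 538 against 9.32 and 9.52 CPM with 540 and 542, and 3.99 to 5.7 CPM in the controls. RN7SK, a small nuclear RNA, lay at 5.87 to 7.68 CPM under control shRNA and at 20.7, 11.2 and 43.7 CPM.

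The lower set at 1.5-fold held genes of several kinds. ETV5, a transcription factor downstream of RAS-MAPK signalling, lay at 59, 64 and 55.4 CPM under control shRNA and at 30.6, 39.1 and 31.6 CPM with shRNAs 538, 540 and 542. CPT1A, the carnitine palmitoyltransferase that admits fatty acids to mitochondria, lay at 252 to 258 CPM under control shRNA and at 155, 163 and 150 CPM. EVPL, a protein of epithelial junctions and the cornified envelope, lay at 191 to 201 CPM under control shRNA and at 98.2, 115 and 81.2 CPM. All 3 were called with 6 libraries (edgeR adjusted p of 0.0492 for ETV5, 0.0177 for CPT1A and 0.0181 for EVPL) and not with 9. PLAC8, a protein of myeloid cells, lay at 32.6 to 34.9 CPM under control shRNA and at 14.8, 21.3 and 11.9 CPM. The receptors PTK7 and PLXND1, the growth factor PGF, the myosin MYH10 and the sodium pump subunit ATP1B1 were also in this set, at log2 fold changes of -1.02 to -0.72. Of the 18 genes called with 6 libraries, 16 were among these 40. The other 2 were CXCL8 and MRC2, a collagen receptor that lay at 153 to 179 CPM under control shRNA and at 93.2, 101 and 114 CPM. The fit and the 1.5-fold rule use the same 6 libraries, so the overlap of 16 is no separate support for either.

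**Figure D2:**
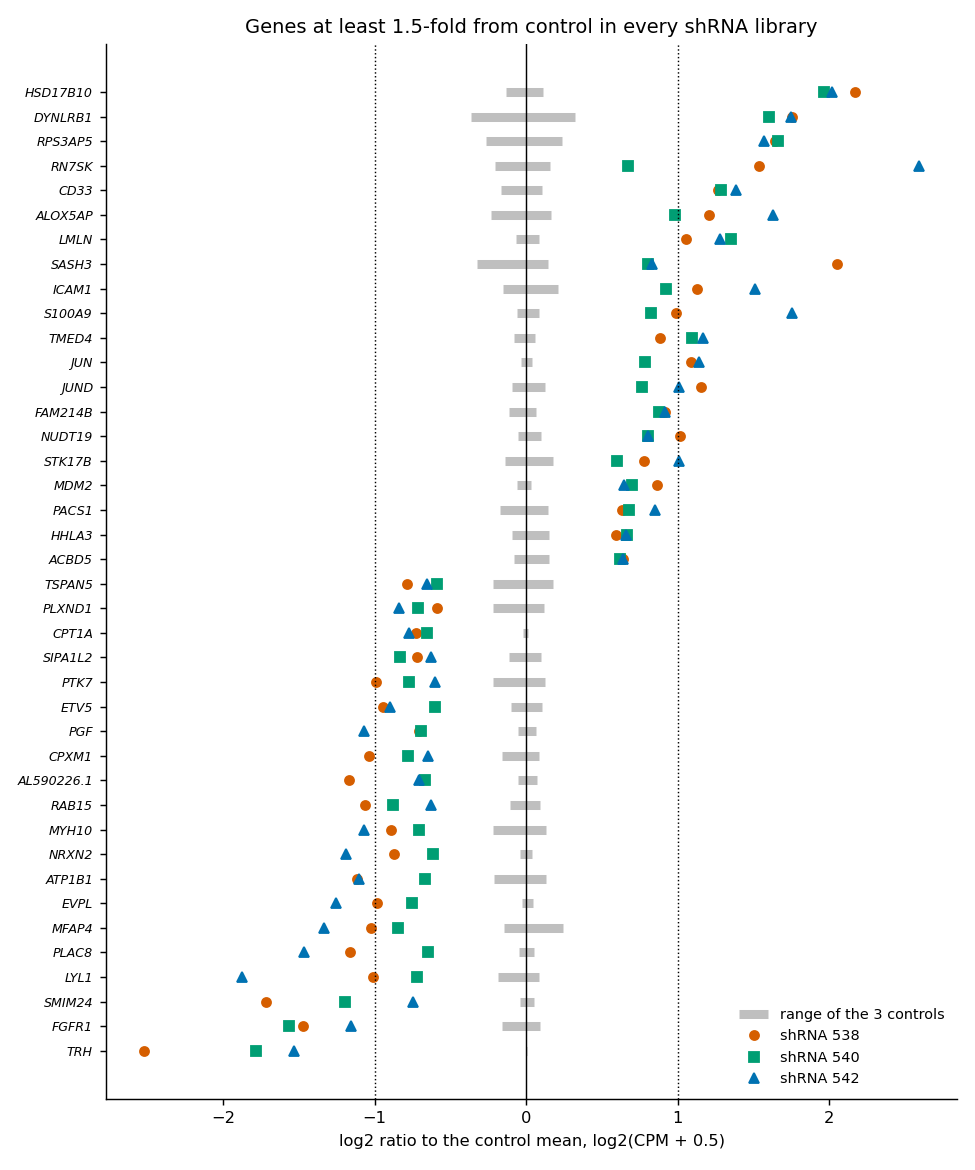
The 40 genes at least 1.5-fold from the control mean in every LYL1 shRNA library, with the log2 ratio of each shRNA library to the control mean on log2(CPM + 0.5) (x axis), the range of the 3 controls as grey bars and dotted lines at 2-fold. HSD17B10, DYNLRB1, CD33 and RPS3AP5 show the 3 shRNAs close together, whereas RN7SK, SASH3, LYL1 and TRH show them apart.

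Within the 39 genes of this set other than LYL1, shRNAs 538 and 542 gave the largest ratio for 17 each and shRNA 540 for 5. The smallest ratio came from shRNA 540 for 23, from 542 for 10 and from 538 for 6. The shRNA that left the most LYL1 (540, 60.5% of control) had the smallest ratio most often. It also had the fewest genes past 2-fold, 70 against 142 with 538 and 158 with 542. Between the other two, 542 left less LYL1 than 538 but did not give the largest ratio more often. With 3 shRNAs this is a description of 3 libraries, and the 39 genes were chosen by these same ratios. shRNA 542 also had the highest share of mitochondrial ribosomal RNA (0.79%) and the lowest total, and the part of these in its larger ratios was not tested.

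The partners of LYL1 in the fusion complex did not pass the edgeR test. RUNX1T1, which gives the fusion its ETO portion, lay at 215, 223 and 211 CPM under control shRNA and at 183, 201 and 261 CPM with shRNAs 538, 540 and 542, around the controls. RUNX1, whose counts add the fusion to the normal allele, lay at 386, 357 and 535 CPM against 367 to 390 CPM, and CBFB, its partner subunit, at 124, 127 and 149 CPM against 128 to 141 CPM. CARM1 lay at 92.4, 64.2 and 69.2 CPM with the shRNAs and at 75.6 to 87.7 CPM in the controls. LMO2, the bridging adaptor, was at 63.3 CPM with shRNA 538 and at 123 and 125 CPM with 540 and 542, against 101 to 114 CPM. TAL1, the close relative of LYL1, was low in all libraries, at 1.64 to 2.6 CPM under control shRNA and at 1.07, 2.67 and 2.74 CPM. The E protein TCF12 (HEB) was the other member below all controls, at 125, 140 and 118 CPM against 145 to 148 CPM (log2 fold change -0.20, SE 0.13). Of the 13 tested members of this list none was called by edgeR with 9 or 6 libraries (1 at an unadjusted p below 0.05), while DESeq2 and limma-voom with a spread per group called 1, LYL1. None lay above all controls and 2 lay below, LYL1 and TCF12. The share of all genes tested was 8.41% above and 8.17% below all controls. TCF4 did not pass the filter on low counts.

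A wider list held helix-loop-helix, ID and bridging factors. CBFA2T3, a corepressor of the ETO family, lay at 15.1, 17.1 and 13.1 CPM under control shRNA and at 8.51, 10.1 and 9.42 CPM with the shRNAs (log2 fold change -0.69, SE 0.27). ID3, an inhibitor of E proteins, was low, at 0.42 to 0.769 CPM under control shRNA and at 1.04, 0.541 and 1.45 CPM. None of the 15 tested members, which again include LYL1, was called by edgeR (2 at an unadjusted p below 0.05). None lay above all controls and 3 lay below, where 8.41% of all genes tested lay above and 8.17% below. Of 8 tested protein arginine methyltransferases none was called by any tool (0 at an unadjusted p below 0.05). Above all controls lay 2 of them, where 8.41% of all genes tested did. They were PRMT6 (28.7 to 29.1 CPM in the controls and 39.1, 34.6 and 34 CPM) and PRMT3.

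Genes described as raised or repressed by AML1-ETO differed among themselves. Of 10 tested genes described as raised, TRH was the 1 called, 3 lay below all controls and 1 above, with a median log2 fold change of -0.32 against 0.0054 for all genes tested, of which 8.17% lay below and 8.41% above. The other 2 below were UBASH3B, a phosphatase (283 to 303 CPM in the controls and 257, 241 and 174 CPM), and JUP, plakoglobin (498 to 609 CPM and 471, 414 and 424 CPM). POU4F1, a transcription factor typical of t(8;21) leukaemia, was the gene above, at 33.5 to 36.4 CPM in the controls and 45.9, 42.3 and 39 CPM. Of 9 tested genes described as repressed none was called by any tool. At an unadjusted p below 0.05 there were 4, all higher, where 2.73% of all genes tested were higher. In this list 3 lay above all controls and none below, with a median of 0.27. These 3 were CEBPA and CEBPD, transcription factors of myeloid maturation, and CSF1R, a growth factor receptor of macrophages. CEBPA lay at a control mean of 1.44 CPM (SD 0.18, n = 3) and at 2.53, 2.86 and 2.29 CPM with shRNAs 538, 540 and 542. CSF1R lay at 2.52 to 3.05 CPM under control shRNA and at 3.68, 15.2 and 6.93 CPM, so that shRNA 540 carried most of its difference.

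Primary granule genes had median ratios of different sign between the shRNAs, and no gene of this or the stem and monocyte lists was called by edgeR. MPO, myeloperoxidase, lay at 17545 to 20448 CPM under control shRNA and at 11418, 13621 and 16489 CPM with shRNAs 538, 540 and 542, below the controls in each (log2 fold change -0.49, SE 0.27, not called). CLEC5A, a myeloid lectin receptor, lay at 269 to 306 CPM under control shRNA and at 233, 209 and 226 CPM. Of 15 tested primary granule genes none was called by any tool (2 at an unadjusted p below 0.05) and 3 lay below all controls, PLAC8, CLEC5A and MPO, where 8.17% of all genes tested did. The list's median log2 ratio was -0.52, -0.27 and 0.18 with shRNAs 538, 540 and 542. CD34, the progenitor antigen, lay at 53.2 CPM with shRNA 538, 22 CPM with 540 and 9.97 CPM with 542, against 10.5 to 12.5 CPM in the controls. Of 14 tested stem and progenitor genes none was called by edgeR (1 at an unadjusted p below 0.05) and 2 lay below all controls, with median ratios of -0.035, 0.017 and -0.043. TIE1, an endothelial and stem cell receptor, was one, at 2.48 to 2.87 CPM in the controls and 0.729, 0.812 and 1.25 CPM (edgeR log2 fold change -1.53 with SE 0.27, adjusted p = 0.183, and 0.0113 by DESeq2, which called it), and the other was ETV6. Of 9 tested monocyte and macrophage genes none was called by any tool (1 at an unadjusted p below 0.05). Above all controls lay 3, CSF1R, S100A9 and FCGR1A, where 8.41% of all genes did, and none lay below. The median fitted log2 fold change was 0.74 and the median ratios were 0.32, 0.41 and 0.15. Only 4 of the 9 reached the level minimum. CD86, 1 of the low genes, lay at 0.462 to 1.36 CPM under control shRNA and at 6.33, 0.387 and 1.10 CPM with shRNAs 538, 540 and 542. Fewer cells of a kind and less RNA per cell cannot be told apart in bulk libraries.

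Among genes of inflammation, immediate early response and the p53 pathway, 2 or 3 members of each list lay above the controls with all 3 shRNAs, where 8.41% of all genes tested lay above and 8.17% below. Of 13 tested NF-kB target genes none was called by edgeR with 9 libraries (3 at an unadjusted p below 0.05) and 2 lay above all controls, CXCL8 and ICAM1, both called with 6. The list's median fitted log2 fold change was 0.39, while its median ratios were 0.13, 0.01 and 0.17 with shRNAs 538, 540 and 542. Of its 13 tested members 8 reached the level minimum. NFKB2 and RELB, subunits of NF-kB, were highest with shRNA 538, at 35.8 and 15.5 CPM, against 15.6 to 17.6 and 6.17 to 9.02 CPM in the controls, and at 17 to 21.9 and 7.46 to 8.47 CPM with the other two. Of 18 tested AP-1 and immediate early genes none was called by edgeR with 9 libraries (3 at an unadjusted p below 0.05) and 1 with 6, JUND (edgeR adjusted p = 0.0181), which DESeq2 and limma-voom with a spread per group also called. In this list 3 lay above all controls (JUN, JUND and KLF6) and 1 below (FOSL2), and the median ratios of 0.30, -0.11 and 0.06 differed in sign. FOS lay at 1.22 to 2.07 CPM under control shRNA and at 2.91, 1.78 and 3.44 CPM, with shRNA 540 within the control range. Of 21 tested p53 pathway genes none was called by edgeR with 9 libraries and 1 with 6, MDM2. At an unadjusted p below 0.05 there were 6, of which 4 were higher and 2 lower, where 2.73% of all genes tested were higher and 2.10% lower. In this list 3 lay above all controls, MDM2 among them, and 1 below. The other 2 above were the death receptor FAS (0.607 to 0.755 CPM in the controls and 1.92, 1.43 and 1.45 CPM) and BBC3, the BCL2-family protein PUMA (0.941 to 1.09 CPM and 2.45, 2.13 and 1.54 CPM). CDKN1A, the cell cycle inhibitor p21, lay at 1.55 to 2.45 CPM under control shRNA and at 5.29, 2.2 and 7.82 CPM, again with shRNA 540 within the control range. The p53 list's median log2 fold change was 0.033.

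Many S phase genes lay below the controls, by small amounts. Of 38 tested S phase genes 18 lay below all 3 controls in all 3 shRNAs and none above, where 8.17% of all genes tested lay below. None was called by any tool (2 at an unadjusted p below 0.05). Their median log2 fold change was -0.20, and the median ratio was -0.18, -0.23 and -0.17 with shRNAs 538, 540 and 542. CDT1, a replication licensing factor, lay at 116, 120 and 95.1 CPM under control shRNA and at 91.1, 79.5 and 85.9 CPM with the shRNAs. FEN1, the flap endonuclease of DNA replication, lay at 173 to 203 CPM under control shRNA and at 135, 130 and 144 CPM. POLE, a DNA polymerase, lay at 417 to 452 CPM and at 243, 376 and 277 CPM, and the cyclin CCNE1 at 51.7 to 55.5 CPM and at 29.8, 44.9 and 37.9 CPM. The count was 18 to 24 of 38 when any 1 of the 6 libraries was left out, where 10.1% to 15.6% of all genes lay below. Of 39 tested G2 and M phase genes 12 lay below all controls and 1 above, with a median of -0.07. Genes of one phase are not independent of each other.

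**Figure D3:**
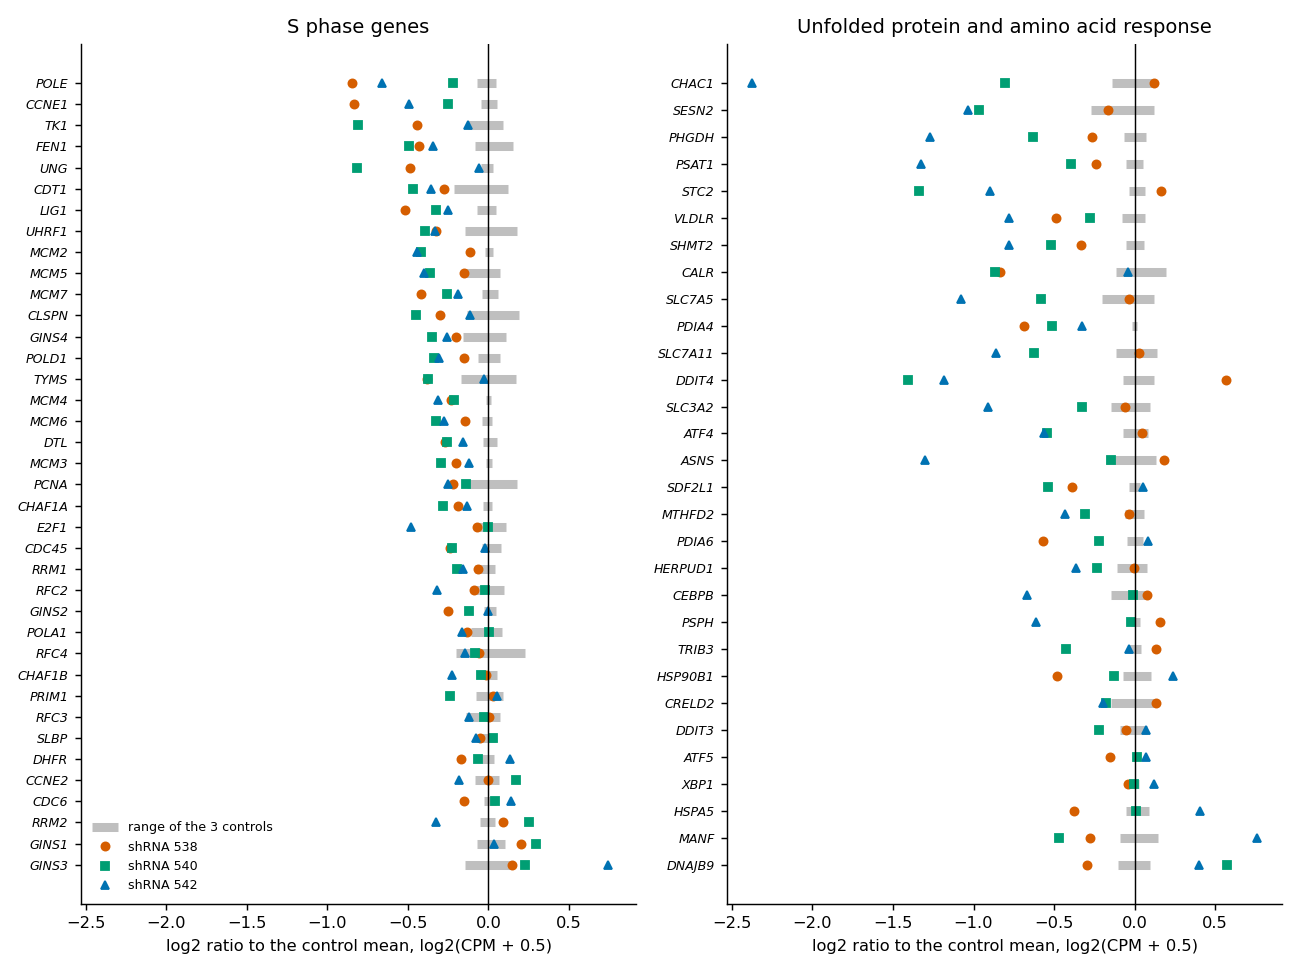
Log2 ratio of each LYL1 shRNA library to the control mean, on log2(CPM + 0.5) (x axis), for the 38 tested S phase genes and the 30 tested unfolded protein and amino acid response genes, with the range of the controls as grey bars. Many S phase genes lie left of 0 with all 3 shRNAs, GINS3 being among the exceptions, while many response genes, such as CHAC1 and ATF4, lie left with shRNAs 540 and 542 and near 0 with 538.

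Unfolded protein and amino acid response genes lay low with shRNAs 540 and 542 and near the controls with 538. Of 30 tested genes none was called by any tool. At an unadjusted p below 0.05 there were 4, all lower, where 2.10% of all genes tested were lower. Below all controls lay 5, against 8.17% of all genes, and none lay above. The median ratio was -0.06, -0.36 and -0.50 with shRNAs 538, 540 and 542. PHGDH and SHMT2, enzymes of serine and glycine synthesis, show the gradient. PHGDH lay at a control mean of 272 CPM (SD 13.1, n = 3) and at 227, 176 and 112 CPM with the shRNAs, and SHMT2 at 261 CPM (SD 9.8) and at 207, 182 and 152 CPM. ATF4, the transcription factor of this response, lay at a control mean of 426 CPM (SD 23.3) and at 439, 292 and 288 CPM. PDIA4, a protein disulphide isomerase of the endoplasmic reticulum, had another order, at 265, 298 and 340 CPM against 422 to 430 CPM. Without shRNA 538, 17 of the 30 genes lay below all controls, where 15.3% of all genes did. Without control replicate 3 or shRNA 542 there were 10, where 14% and 15.6% of all genes did. Without control replicate 1, control replicate 2 or shRNA 540 the count stayed at 5, where 10.9%, 10.1% and 14.2% of all genes did.

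In the remaining lists edgeR with 9 libraries called no member, and beside the counts below 8.41% of all genes tested lay above and 8.17% below all controls. Of 42 tested cytosolic ribosomal protein genes 1 lay below all controls and none above, and their median ratio was 0.10, 0.09 and -0.27 with shRNAs 538, 540 and 542. For oxidative phosphorylation genes the medians were 0.11, 0.02 and -0.21. In both, shRNA 542 stood apart from the other two, and that library had the highest share of mitochondrial ribosomal RNA, whose part in this was not tested. Interferon-stimulated genes, which double-stranded RNA can induce, had 3 of 20 tested members below all controls and none above, with a median of -0.0097. Of 17 tested genes of RNA interference and double-stranded RNA sensing 1 lay above and 2 below. Of 16 tested cytokine and kinase receptors none was called by any tool. At an unadjusted p below 0.05 there were 3, all higher, where 2.73% of all genes tested were higher. Of these receptors 6 lay above all controls and none below. They included CSF2RB, the common beta chain of the interleukin-3 receptor family (1.05 to 2.14 CPM in the controls and 5.64, 3.13 and 2.64 CPM), and TGFBR2 (211 to 223 CPM and 317, 248 and 349 CPM). The receptors FGFR1 and TIE1, described above, are not members of this list, and both lay below all controls. FGFR1 was called by edgeR with 6 libraries and TIE1 by DESeq2. Of 21 tested adhesion and migration genes 4 lay above all controls and none below, among them CD44 (306 to 343 CPM and 478, 496 and 363 CPM). ICAM1, also in this list, was called with 6 libraries (edgeR adjusted p = 0.0318).

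**Figure D4:**
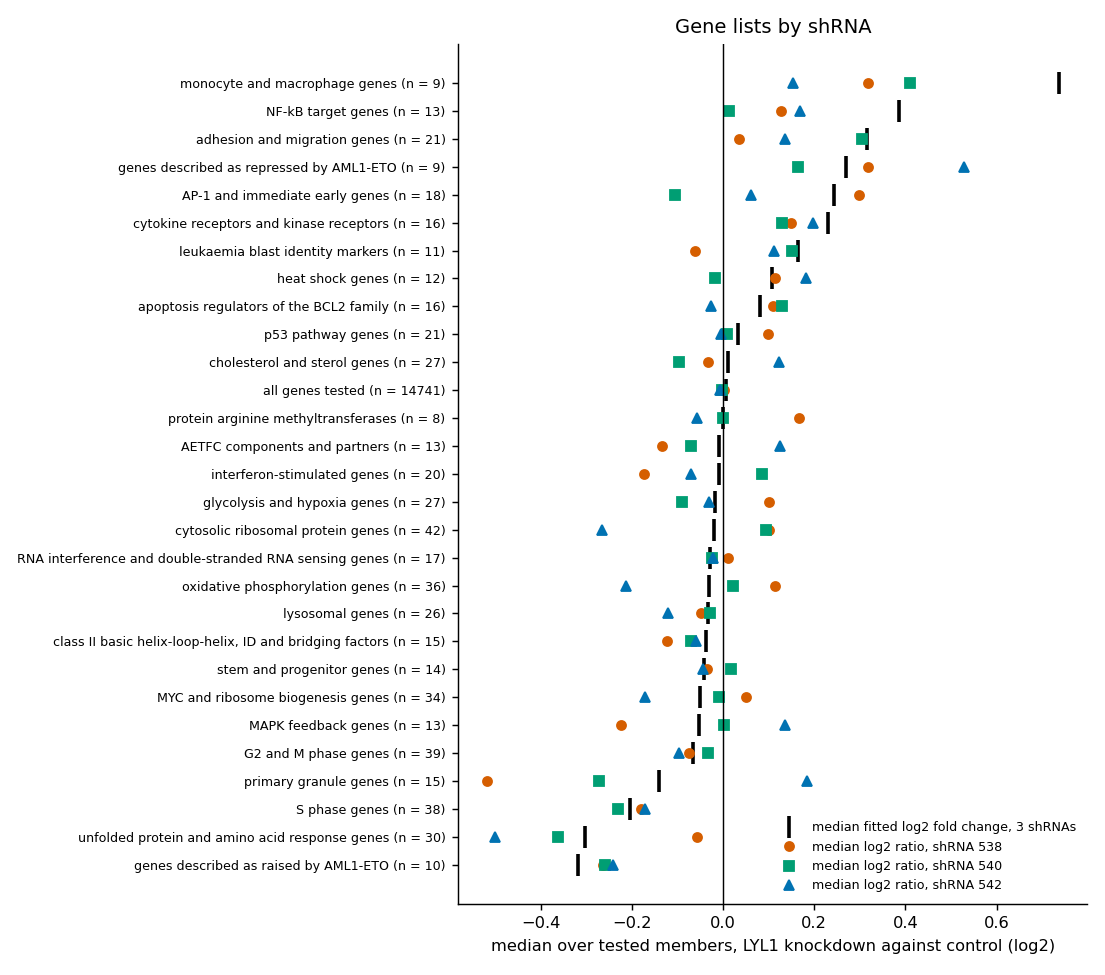
Median over the tested members of each list with at least 8 of them: the fitted log2 fold change of LYL1 knockdown against control (black bars) and the log2 ratio of each shRNA library on log2(CPM + 0.5) (coloured symbols). All genes tested lie at 0, S phase genes and genes described as raised by AML1-ETO show the 3 shRNAs together, and primary granule genes show them on both sides of 0.

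Each shRNA also set single genes far from both the controls and the other two shRNAs. With shRNA 538, PRSS57, a serine protease of neutrophil granules, lay at 81.8 CPM, against 623 and 793 CPM with 540 and 542 and 632 to 704 CPM in the controls. RRBP1, a ribosome-binding protein of the endoplasmic reticulum, lay at 23.5 CPM against 107 and 161 CPM and 111 to 120 CPM in the controls, and the integrin ITGB1 at 196 CPM against 735 and 817 CPM and 431 to 506 CPM. GNG4, a G protein subunit, and SYP, synaptophysin, were higher with 538, at 24.1 and 22.9 CPM, against at most 3.39 and 3.64 CPM with the other shRNAs. These 5 genes and the 10 below were picked for this gap, so their values carry no test.

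With shRNA 540, JPT1 lay at 54.7 CPM, against 271 and 234 CPM with 538 and 542 and 214 to 239 CPM in the controls, and MAP1B, a microtubule-associated protein, at 1.97 CPM against 8.21 and 11.1 CPM. ABCA13, an ABC transporter, lay at 1.2 CPM against 5.25 and 10.2 CPM and 5.99 to 6.59 CPM in the controls. The pseudogenes SUMO2P6 (32.5 CPM against 2.22 and 2.69 CPM) and UBE2V1P2 (1.55 CPM against 32.7 and 20.3 CPM) have near-identical parent genes, so their counts are uncertain. With shRNA 542, TPM3, a tropomyosin, lay at 177 CPM against 885 and 688 CPM and 804 to 910 CPM in the controls. BCL6, a transcriptional repressor, lay at 1.45 CPM against 20.1 and 14 CPM and 5.75 to 7.12 CPM in the controls, so the shRNAs lay on both sides of the controls. RASSF5, a RAS effector, lay at 1.35 CPM against 7.33 and 7.12 CPM, and ZFP36L1, an RNA-binding protein of mRNA decay, at 9.67 CPM against 51.2 and 37.3 CPM and 12 to 14.4 CPM in the controls, so that here the other two shRNAs were the farther from the controls. HINT1P1, a pseudogene, lay at 1.45 CPM against 7.98 and 7.97 CPM, and its parent HINT1 at 103 CPM against 319 and 325 CPM and 317 to 328 CPM in the controls.

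**Figure D5:**
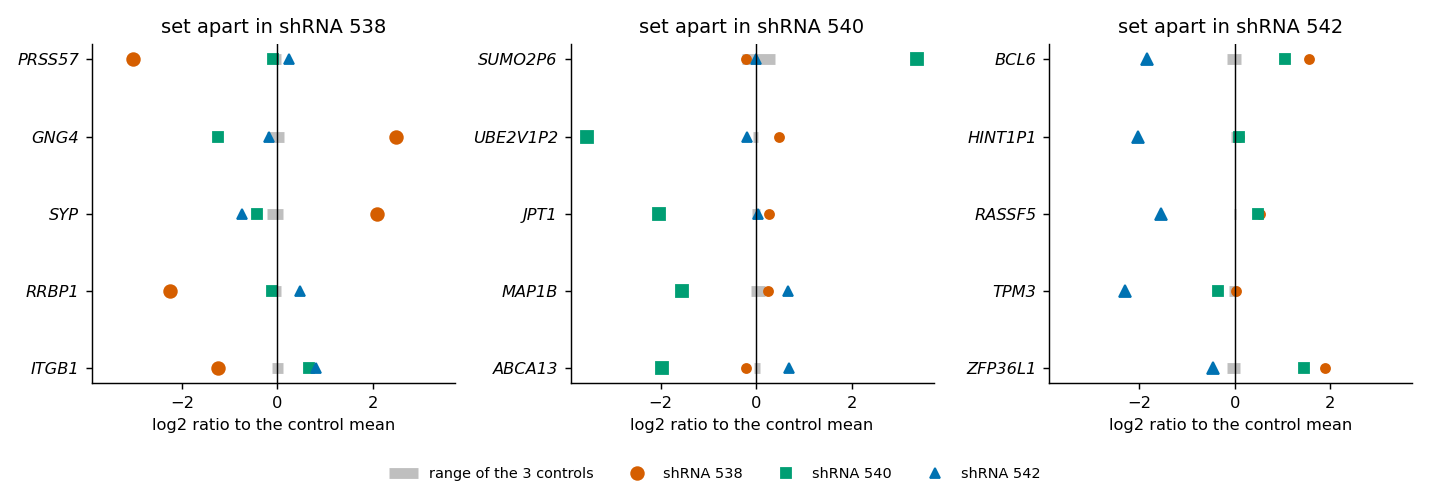
The 5 genes per LYL1 shRNA whose log2 ratio to the control mean, on log2(CPM + 0.5) (x axis), lies farthest from the nearer of the other two shRNAs, with the range of the 3 controls as grey bars. PRSS57 with shRNA 538, UBE2V1P2 with shRNA 540 and TPM3 with shRNA 542 lie far below the controls while the other two shRNAs lie near them, and BCL6 and ZFP36L1 show shRNAs on both sides.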

How the data were processed

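RNA was sequenced from 9 Kasumi-1 libraries, and the deposited files hold whole-number counts of reads per gene, 1 file per library. Per the submitters' processing notes the authors used fastp 0.20.1, HISAT2 2.2.0, SAMtools 1.7, featureCounts 2.0.1 and DESeq2 1.26.0 with the genome build hg19. The annotation, the strand setting and the handling of multi-mapping reads are not given in the sources used here, nor are the shRNA sequences. Each file listed 59648 genes.

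Counts were scaled to CPM with TMM library sizes, and genes with low counts were removed by filterByExpr, leaving 14741. All 9 libraries were fitted with 1 mean per group in edgeR 4.0.16 (R 4.3.3), by the robust quasi-likelihood test with Benjamini-Hochberg adjustment at 0.05. The SE is the absolute log2 fold change divided by the square root of F. Alternatives were a fit of the 6 libraries, DESeq2 1.42.0, limma-voom (limma 3.58.1) with a common spread and with a spread per group, other scalings, filters, thresholds and pseudocounts, and each library left out. The procedure was tested on simulated data, in which each gene had 1 spread for all groups. Such data do not hold the unequal spread of the control, LYL1 and AML1-ETO libraries (7.57%, 20.9% and 31.5%).

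The genes described are LYL1 and its complex, called genes, genes on which all 3 shRNAs agree, the 4 members of a described list with the smallest p, and for each shRNA the 5 genes farthest from the nearer of the other two. FOS, CDKN1A, CD34, NFKB2, RELB, ATF4, ID3 and some others were named after their values were seen. The members and lists were chosen with earlier results of these data known. Promoters came from the RefSeq table (GRCh38.p14), in which 9830 of the 14741 tested genes were matched.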

Additional observations from a re-analysis of the deposited data

How the results depend on the processing

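No paired analysis was possible because the control libraries are numbered 1 to 3 and the LYL1 libraries 538, 540 and 542, so the groups share no number. Against 2 genes called (1 higher, 1 lower), library size scaling alone gave 5 (4 higher), no filter on low counts 8 (7 higher), a strict filter 1 (0 lower), the 6 libraries alone 18 (12 higher, 6 lower), DESeq2 34 (25 higher, 9 lower), limma-voom with a spread per group 26 (20 higher, 6 lower) and an adjusted p below 0.01 gave 1 (0 lower). Leaving out any 1 of the 6 libraries gave 1 called gene, 1 higher and 0 lower by edgeR, with 157 to 354 genes lower at an unadjusted p below 0.05. The edgeR test of the log2 fold change of TRH then gave an adjusted p of 0.236, 0.148 and 0.317 without controls 1, 2 and 3 and 0.054, 0.172 and 0.0633 without shRNAs 538, 540 and 542. Its adjusted p was 0.0558 under the strict filter. The cause of these differences was not tested.

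The 7 genes on which the shRNAs agree at 2-fold numbered 8 to 24 without 1 library (6 to 14 higher, 2 to 10 lower; 8 higher without control 2, and 15, 24 and 17 in all without shRNAs 538, 540 and 542), 40 at 1.5-fold (20 higher, 20 lower) and 6 with a pseudocount of 2 CPM (4 higher). With 1 library left out the rule has fewer values to satisfy, so the higher counts are no gain in agreement. All 7 genes were kept each time 1 library was left out, and 6 of the 7 were kept with the pseudocount of 2 CPM. The level minimum set on the mean CPM, an alternative chosen after seeing the data, added CXCL8 to both lists, giving 8 and 41 genes.

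Of 158 named genes, 25 changed sign in at least 1 alternative, and none of them was called in the fit reported or in that alternative. By log2 fold change, library size scaling alone gave 0.0055 for RUNX1T1 and 0.014 for PRMT1, the strict filter 0.00092 for PRMT1, and no filter -0.016 for CBFB and -0.0021 for TCF3. limma-voom gave -0.012 for TAL1, -0.30 for MAP1B and -0.19 for RASSF5, and with a spread per group -0.016, -0.31 and -0.17. With 1 library left out the log2 fold change of RUNX1T1 ran from -0.17 to 0.094, of RUNX1 from -0.029 to 0.28, of CBFB from -0.079 to 0.056, of TAL1 from -0.11 to 0.42, of TCF3 from -0.022 to 0.065, of LMO2 from -0.21 to 0.20, of LDB1 from -0.032 to 0.12, of PRMT1 from -0.068 to 0.12, of EP300 from -0.092 to 0.036, of CD86 from -0.21 to 2.30 and of GP1BA from -0.31 to 0.54. It ran for PAX5 from -0.30 to 1.22, for RPL13 from -0.21 to 0.0055, for HLA-B from -0.23 to 0.37, for PRSS57 from -0.92 to 0.083, for GNG4 from -0.76 to 1.82, for SYP from -0.64 to 1.41, for RRBP1 from -0.81 to 0.22, for SUMO2P6 from -0.12 to 2.73 and for UBE2V1P2 from -1.12 to 0.18. For JPT1 it was -0.65 to 0.16, for MAP1B -0.42 to 0.50, for ABCA13 -0.94 to 0.31, for HINT1P1 -0.64 to 0.092 and for RASSF5 -0.19 to 0.55. The cause was not tested.

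The counts of S phase and stress response genes without each library were added after seeing the data. With 1 library per shRNA, no difference between shRNAs has a test. The median SE over all genes was 0.224 with 9 libraries and 0.163 with 6.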
